A study of Mus musculus with 2 samples.

Results

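The genes described here are 9 members of the YAP pathway and its transcriptional targets, out of 31053 genes counted in each library. They were chosen by name, with earlier results of these data known. The members are Yap1, Wwtr1 (which encodes TAZ), Tead1, Lats2, Ajuba, Amotl2, Ctgf, Cyr61 and Ankrd1. Ctgf (Ccn2) and Cyr61 (Ccn1) go by the older symbols that the deposited counts use. Cells were isolated from the back skin of a control animal and of an animal inducible for miR-205 at postnatal day 53, and 1 single-cell RNA-seq library was made from each. The inducible mouse carried a tetracycline-responsive miR-205 transgene driven by a Krt14-rtTA transactivator, so induction depends on Krt14 promoter activity in epithelial cells, and received doxycycline chow for 4 days from postnatal day 49. Both mice were C57BL/6 by their labels, were sex-matched and carried a Krt14-H2BGFP allele. The extraction protocol has both mice on doxycycline, whereas the sample characteristics give the control as untreated. Cells were sorted on surface proteins and nuclear GFP with a ratio of 3 to 5 to 2 set for epidermis, follicle and dermis. With 1 library per group no treatment test was possible, and every interval below is a 95% interval for counting error, which contains no spread between mice.

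YAP and TAZ are transcriptional coactivators that bind DNA through TEAD proteins. The Hippo kinases LATS1 and LATS2 phosphorylate them and hold them in the cytoplasm, and high tension in the actin cytoskeleton favours their entry into the nucleus. Ctgf, Cyr61, Ankrd1 and Amotl2 are commonly used as readouts of YAP activity, Amotl2 and Lats2 are also feedback inhibitors, and Ajuba is a LIM protein that binds LATS kinases at cell junctions. The study stained YAP protein in follicles beside F-actin. After 4 days of induction it reported YAP beginning to gather in nuclei of bulge stem cells and of the hair germ below the bulge. In hair germ cells of the resting and early growth phases, it reported an inverse correlation between nuclear YAP and cortical F-actin. The counts described here measure mRNA, and neither the amount nor the location of the protein.

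The induced agent and a promoter element searched for in the members are shown first. Mature miR-205-5p lies on GRCm38 at chr1:193507503-193507524 (minus strand), and its sequence is given with the seed, bases 2 to 8, in capitals.
miR-205-5p: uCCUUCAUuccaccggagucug
The 7-base complement of the seed is ATGAAGG. When the longest 3′ UTR in the annotation was searched for each gene, 1 of the 9 members held it, Tead1, whose UTR is 8145 bases long, as did 10.3% of 20007 genes, whose UTRs had a median length of 891 bases. Both Tead1 matches are shown with the complement in capitals, on NCBIM37, a build other than that of the counts, at chr7:120044970-120044998 and chr7:120048919-120048947 (plus strand).
Tead1 first match: atacagagaccATGAAGGagtgctactta
Tead1 second match: tatcttttaaaATGAAGGtttttgtattt
The UTRs of Yap1, Wwtr1, Ctgf, Cyr61, Ankrd1, Amotl2, Ajuba and Lats2 held no such match, at lengths from 695 bases for Cyr61 to 3277 bases for Wwtr1. The study's own capture of mRNAs ligated to miR-205 listed Ctgf, as Ccn2. A missing match therefore does not mark a gene as unbound.

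TEAD proteins are known to bind the letters GGAATG, or CATTCC read from the other strand. RefSeq promoters on GRCm38, each 300 bases long with 250 before and 50 after a start site, were given for 7 of the 9 members, and all 7 held these letters at 1 start site or more. Over all genes with a promoter the share was 16.6% of 27025. Matches are letters in a window, not measured binding. The 250 bases before the Cyr61 start site, at chr3:145649986-145650235 (minus strand), carry the match in capitals, with its first base 103 bases before the start site.
Cyr61 promoter: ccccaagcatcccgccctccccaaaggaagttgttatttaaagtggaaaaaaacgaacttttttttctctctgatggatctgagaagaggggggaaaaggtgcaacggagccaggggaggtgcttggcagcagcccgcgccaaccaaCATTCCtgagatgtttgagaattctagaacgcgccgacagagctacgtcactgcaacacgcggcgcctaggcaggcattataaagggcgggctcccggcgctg
Windows of 30 bases around a match are also given for some other members. They are Wwtr1 at chr3:57576029-57576058 (minus strand), Yap1 at chr9:8004720-8004749 (minus strand) and Amotl2 at chr9:102717727-102717756 (plus strand). For Ajuba the match nearer its start site is given, at chr14:54577808-54577837 (minus strand).
Wwtr1: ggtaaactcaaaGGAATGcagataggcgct
Yap1: cgggagtctgcaGGAATGtagcgacgcgca
Amotl2: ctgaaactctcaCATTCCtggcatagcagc
Ajuba: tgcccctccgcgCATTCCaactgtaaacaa
Ankrd1 held 2 matches and Ajuba 2, and Lats2 held 1, which lay 5 bases past the start site.

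The control library held 55465594 unique molecular identifiers (UMIs, each standing for 1 captured mRNA molecule) in 4545 barcodes and the induced library 49733560 in 4264. After filtering, 3936 control and 3628 induced cells were left, with median depths of 12198.5 and 11752.5 UMIs. Before filtering 11 barcodes occurred in both libraries, and among kept cells 5 did. Clustering, done without any of the genes listed here, gave 23 clusters, of which 16 were named from markers and 21 held at least 20 cells in each library. Levels are UMIs summed over the cells of a cluster within 1 library and scaled to a fixed total (CPM). Cells called HF-SC-like, for their hair follicle stem cell markers, were clusters 5 and 15, both with Cd34, Krt24, Postn, Ptn, Lhx2 and Krt15 raised. Cluster 5 had 270 control and 231 induced cells, and its top genes included Krt6a, a marker of the inner bulge. Cluster 15 had 85 control and 127 induced cells. No cluster could be named hair germ, the progenitor compartment below the bulge. Cluster 7, with 208 control and 210 induced cells, came closest and had 6 of 6 hair germ markers raised, including Lgr5 at 12.6-fold over all other cells. Against cluster 5 the gap was smaller, with Lgr5 at 169 and 140 CPM in cluster 7 and 115 and 82.9 CPM in cluster 5. Hoxc13 was higher in cluster 5, at 84.6 and 56.8 CPM against 41.8 and 38.5 CPM, while Cdh3, Lef1, Msx2 and Gli1 were higher in cluster 7. Cluster 7 also had Acta2 and Tagln among its top genes and is referred to by number.

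Mean levels of the coactivators differed 25.7-fold between the highest and the lowest cluster for Yap1 and 28.6-fold for Wwtr1, with immune clusters lowest. Yap1 was highest in dermal papilla-like cells, at 142 CPM in the control and 116 CPM in the induced library, and next highest in cluster 7, at 108 and 128 CPM. In the named epithelial clusters it stayed within a narrow band, for example 59.0 and 70.6 CPM in cluster 5 and 80.9 and 73.5 CPM in the upper hair follicle-like cluster. Langerhans or antigen-presenting-like cells were lowest, at 4.00 and 6.01 CPM from 2 and 3 UMIs. All 20 pairs of neighbours in the order of Yap1 levels overlapped between their libraries. Wwtr1 had 355 and 274 CPM in cluster 0, an unnamed cluster with Krt14 and Krt5 raised, and 261 and 188 CPM in 1 of the suprabasal-like epidermal clusters, against 86.1 and 78.3 CPM in inner bulge-like cells. Both paralogues were low in the T cell-like cluster 20, and 19 of 20 neighbour pairs of Wwtr1 overlapped. Tead1, the DNA-binding partner, was at 124 and 218 CPM in melanocyte-like cells, at 107 and 124 CPM in dermal papilla-like cells, and had no UMI in the T cell-like cluster 20.

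The targets were far more uneven. Cyr61, a secreted matricellular protein, stood at 8689 CPM in the control and 5749 CPM in the induced cells of cluster 5, above every other cluster in both libraries. Cluster 11, an unnamed cluster marked by Pthlh and Sema3e, was next at 3682 and 3981 CPM, and dermal papilla-like cells had 1737 and 2413 CPM. Suprabasal-like epidermal cells had 78.0 and 73.6 CPM in cluster 10, and Langerhans or antigen-presenting-like cells 18.0 and 38.1 CPM. Mean levels of the highest and the lowest cluster were 257-fold apart. Of the 20 neighbour pairs, 4 were separate in both libraries and 16 overlapped, so the place of cluster 5 at the top is clear of the libraries' spread while the order from dermal papilla-like cells down to fibroblast-like cells is not.

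Ctgf, a relative of Cyr61 in the same protein family, had a different leader. It was highest in cluster 11, at 742 and 1292 CPM, followed by both HF-SC-like clusters, at 481 and 950 CPM in cluster 15 and 210 and 395 CPM in cluster 5. Dermal papilla-like cells, rich in Cyr61 mRNA, had 6.04 and 9.63 CPM of Ctgf from 4 and 12 UMIs. Amotl2 was highest in cluster 5, at 60.8 and 34.3 CPM, and Ajuba in cluster 11, at 63.3 and 43.0 CPM, and neither was separate from its neighbours. Lats2 ran the other way: its highest level was in the T cell-like cluster 20, at 268 and 366 CPM from 34 and 52 UMIs in 28 cells of each library, and dermal papilla-like cells had 28.7 and 32.1 CPM. Ankrd1, best known from heart and muscle, gave 18 UMIs in all control cells and 2 in all induced cells. Of these 17 were in control cells of cluster 9, an unnamed cluster led by Krt18 and Krt8, where they lay in 5 cells or fewer, and HF-SC-like cells had none, which allows up to 0.862 CPM in the control and 0.843 CPM in the induced library.

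**Figure D1:**
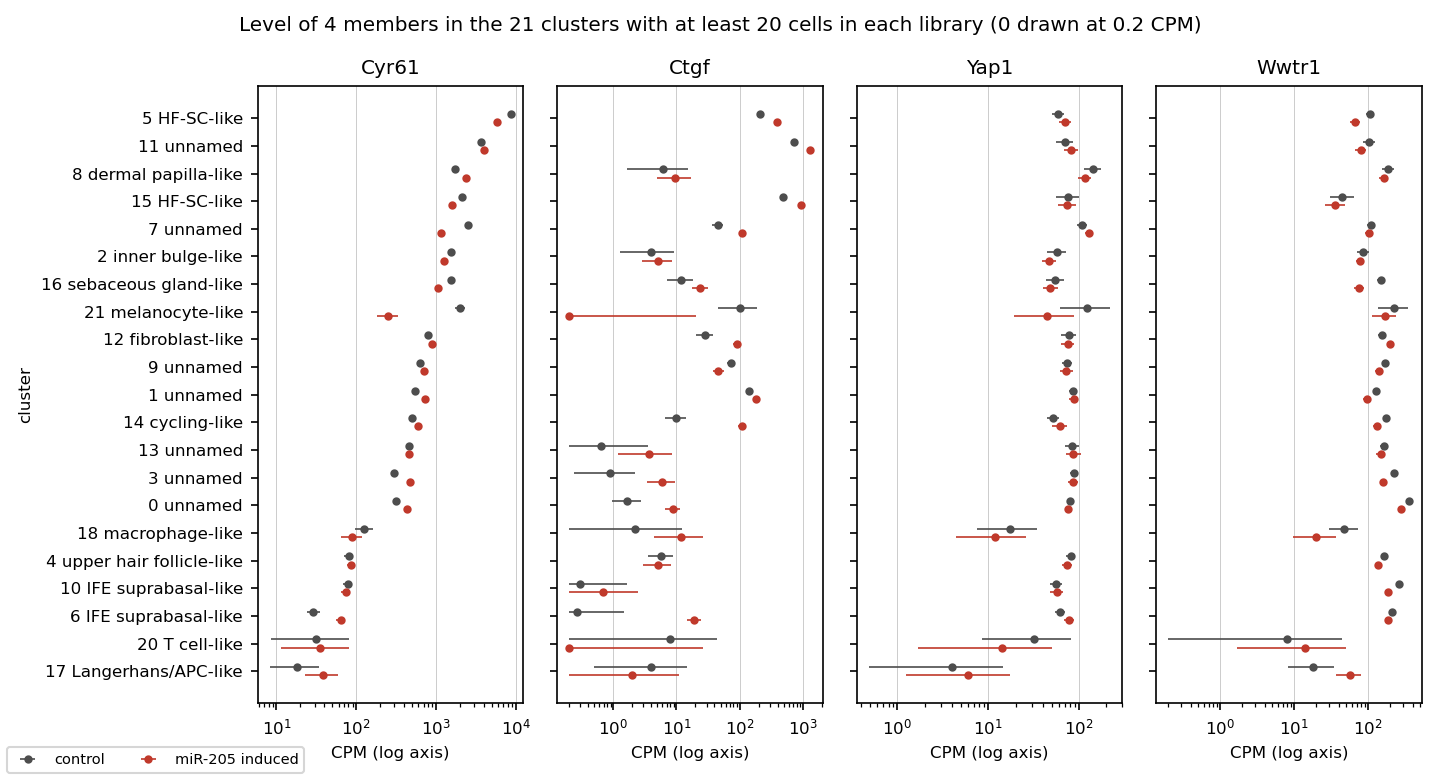
CPM of Cyr61, Ctgf, Yap1 and Wwtr1 (log axes) in the 21 clusters with at least 20 cells per library, in the control (grey) and the miR-205 induced library (red), with exact Poisson 95% intervals as bars and levels of 0 drawn at 0.2 CPM. Cyr61 peaks in cluster 5 at 8689 and 5749 CPM and Ctgf in cluster 11 at 742 and 1292 CPM, while Yap1 differs little between the named epithelial clusters.

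Genes whose levels followed each member most closely were sought among 10801 genes over the 21 clusters, with the Pearson correlation of log2(CPM + 10) as the measure. For Cyr61 they were Ltbp3 (r = 0.89), Lrp6 (0.88), Cavin1 (0.85), Golim4 (0.84) and Myc (0.84). For Ctgf they were Sema3e (0.90), Megf6 (0.89), Spats2l (0.87), Serpinb11 (0.86) and Rflnb (0.85), of which Sema3e, Serpinb11 and Rflnb are also top genes of cluster 11. For Yap1 they were Tmem59 (0.88), Yaf2 (0.86), Ryk (0.86), Bmpr1a (0.85) and Tmem65 (0.85). Among the members, Tead1 and Wwtr1 had r = 0.79, Tead1 and Yap1 0.74, Wwtr1 and Yap1 0.68, and Cyr61 and Ctgf 0.68, while Lats2 was negative against every other member tested, from -0.67 with Ajuba to -0.18 with Ctgf. The clusters share libraries and depth, so these are descriptions.

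To follow the pathway in the stem cell compartment, induced and control HF-SC-like cells were set against each other. The best known targets parted: Cyr61 and Amotl2 were lower and Ctgf was higher in the induced library, and the coactivator Wwtr1 and its partner Tead1 were lower while Yap1 was not. Of the 9 members, 8 had at least 20 UMIs; 4 were lower by at least 1.5-fold, where 6.68% of 9594 genes were, and 1 was higher, where 13% of genes were. Their median log2 ratio was -0.49, against 0.09 over all genes.

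Cyr61 had 7434 CPM (7344 to 7526) in the control and 4455 CPM (4386 to 4525) in the induced library, from 25886 and 15857 UMIs, a log2 ratio of -0.74 (-0.77 to -0.71). Ctgf had 262 CPM (245 to 280) and 568 CPM (544 to 594), from 913 and 2023 UMIs, a log2 ratio of 1.12 (1.00 to 1.23). Thus 2 targets of the same family moved apart in the same cells. Amotl2, an angiomotin that holds YAP at junctions, had 50.8 CPM (43.6 to 58.9) and 27.8 CPM (22.6 to 33.9), a log2 ratio of -0.87 (-1.24 to -0.51). Wwtr1 had 93.3 CPM (83.5 to 104) and 57.0 CPM (49.5 to 65.4), a log2 ratio of -0.71 (-0.97 to -0.45). Tead1 had 66.9 CPM (58.6 to 76.1) and 42.1 CPM (35.7 to 49.5), a log2 ratio of -0.67 (-0.97 to -0.36). The intervals of the libraries did not overlap for any of these 5 genes. For Yap1 they did, with 62.0 CPM (54.0 to 70.9) and 71.6 CPM (63.1 to 81.0) and a log2 ratio of 0.21 (-0.06 to 0.48). Ajuba, at 24.7 and 29.5 CPM, and Lats2, at 21.3 and 17.1 CPM, had log2 ratios of 0.25 (-0.17 to 0.68) and -0.31 (-0.82 to 0.20), so that neither direction could be told at this depth. Krt14, whose promoter drives the transactivator, had 9302 and 8234 CPM there. The summed level of the 7 HF-SC markers was 13344 CPM in the control and 16792 CPM in the induced library, with 5 of 7 higher, among them Krt24 at 324 and 876 CPM.

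**Figure D2:**
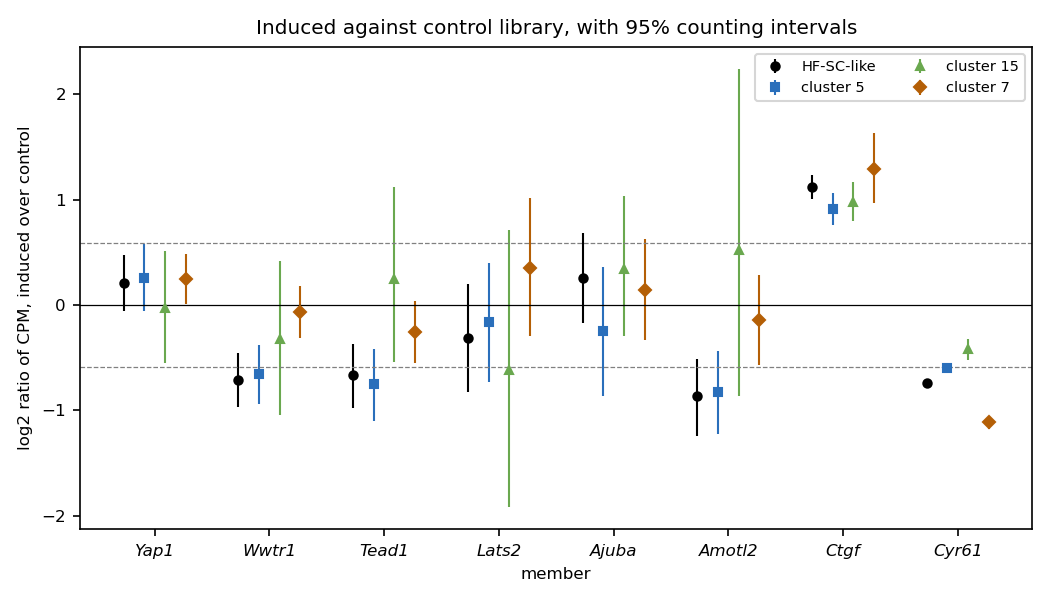
Log2 ratio of CPM, induced over control, for 8 members in HF-SC-like cells, in clusters 5 and 15 apart and in cluster 7, with exact 95% counting intervals; dashed lines mark 1.5-fold and Ankrd1 had too few UMIs. Cyr61 lies below 0 and Ctgf above 0 in all 4 populations, and the wide bars of cluster 15 for Amotl2 and Tead1 cross 0.

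HF-SC-like cells of the induced library held more cells of cluster 15, which has less Cyr61 and more Ctgf than cluster 5, so the clusters were also compared apart. In cluster 5 the log2 ratio of Cyr61 was -0.60 (-0.63 to -0.57) and that of Ctgf 0.91 (0.76 to 1.06). In cluster 15 Cyr61 had 2143 and 1602 CPM, a log2 ratio of -0.42 (-0.52 to -0.32), and Ctgf 481 and 950 CPM, a log2 ratio of 0.98 (0.80 to 1.17). Cyr61 was lower and Ctgf higher in both clusters. In cluster 15 the 5 cells with the most UMIs held 40.8% of the control and 40.3% of the induced UMIs of Cyr61 and 39.6% and 25.2% of those of Ctgf, and in cluster 5 they held 6.38% and 10.8% and 37.3% and 31.1%. Wwtr1, Tead1 and Amotl2 were lower in cluster 5, with log2 ratios of -0.65 (-0.94 to -0.37), -0.75 (-1.10 to -0.41) and -0.82 (-1.22 to -0.44). In cluster 15 they gave 30 and 40, 20 and 40, and 6 and 15 UMIs, and their intervals crossed 0, with Tead1 and Amotl2 at log2 ratios of 0.25 and 0.52.

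The difference in Cyr61 was spread over the cells of cluster 5. Its median per cell was 7624 CPM in the control, with a middle range of 3680 to 12788 CPM from the first to the third quartile, and 4099 CPM in the induced library, with a middle range of 1189 to 8445 CPM. Ctgf was found in a minority of control cells. After each cell was thinned to 5000 UMIs, 103 of 331 control HF-SC-like cells (31.1%, 26.2 to 36.4) and 184 of 344 induced cells (53.5%, 48.1 to 58.9) held a Ctgf UMI, with 24 and 14 shallower cells left out. Unthinned, the shares were 41.7% and 62.0%. Langerhans or antigen-presenting-like cells, taken as background, gave 1 of 49 (2.04%) and 1 of 45 (2.22%), at median depths of 8951.5 and 9592.5 UMIs against 9663 and 9918.5 in HF-SC-like cells. For Cyr61 the thinned shares were 92.7% (89.4 to 95.3) and 84.9% (80.7 to 88.5), against 8.16% and 8.89% in the background cells. Intervals of shares are Clopper-Pearson.

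Of the HF-SC-like cells, 136 of 355 control and 186 of 358 induced cells held UMIs of both Cyr61 and Ctgf. Cyr61 without Ctgf was found in 199 control and 129 induced cells, and Ctgf without Cyr61 in 12 and 36. These counts and the shares above pool clusters 5 and 15, whose cell numbers differed between the libraries. In cluster 5, 33.7% of control and 48.9% of induced cells held both. Cyr61 alone was in 65.2% and 46.3%, and Ctgf alone in 0.370% and 3.46%. In cluster 15, 52.9% and 57.5% held both, 27.1% and 17.3% Cyr61 alone, and 12.9% and 22.0% Ctgf alone. Across the cells of cluster 5, the Spearman correlation between the 2 levels was 0.15 in the control and 0.0042 in the induced library, given as a description since sparse counts lower it. Immediate early genes respond to dissociation, and in cluster 5 their summed level had rho = 0.35 and 0.29 with Ctgf and 0.18 and -0.0047 with Cyr61. In cluster 15 the order was the other one, with rho = 0.055 and -0.026 with Ctgf and 0.64 and 0.47 with Cyr61. In HF-SC-like cells Fos had 3198 and 4493 CPM, Jun 3062 and 2833 CPM, Egr1 1467 and 1551 CPM and Atf3 2541 and 3156 CPM. The part of dissociation in the Ctgf difference was not tested.

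**Figure D3:**
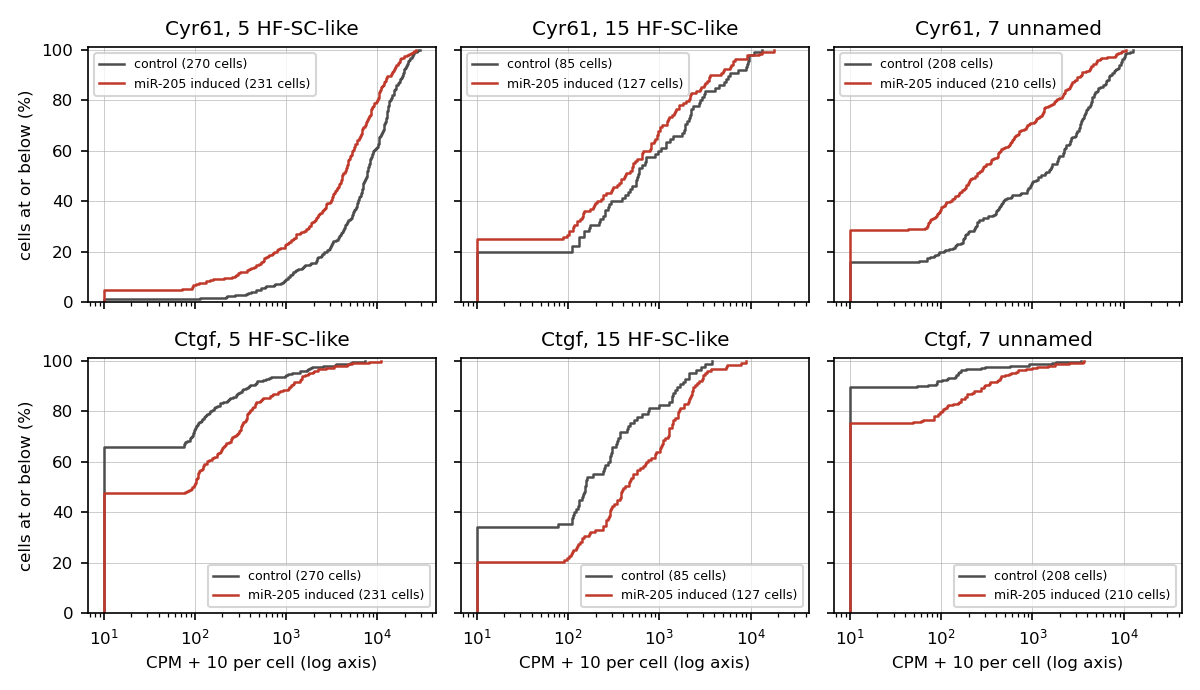
Cumulative percentage of cells at or below each level of Cyr61 (top) and Ctgf (bottom), as CPM + 10 per cell on a log axis, in clusters 5, 15 and 7 of the control (grey) and induced (red) libraries. The induced curve lies to the left for Cyr61, with medians of 7624 and 4099 CPM in cluster 5, and the share of cells without Ctgf is smaller in the induced library in all 3 clusters.

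In cluster 7, the cells closest to hair germ, the same pair parted again. Cyr61 had 2492 CPM (2429 to 2557) in the control and 1153 CPM (1113 to 1194) in the induced library, a log2 ratio of -1.11 (-1.18 to -1.05), and the median per cell was 1224 and 230 CPM. Yap1 was at 108 CPM (95.6 to 123) and 128 CPM (115 to 143), a log2 ratio of 0.24 (0.01 to 0.48). Unthinned, 123 of 208 control and 162 of 210 induced cells held a Yap1 UMI, at median depths of 10997 and 11996.5 UMIs. Wwtr1 was level, at 108 and 103 CPM, with a log2 ratio of -0.07 (-0.31 to 0.19). Tead1, Amotl2, Ajuba and Lats2 had intervals that crossed 0. Of 8 members tested, 1 was lower by at least 1.5-fold (8.7% of 9125 genes) and 1 higher (14.7% of genes). The latter was Ctgf, at 44.7 CPM (36.6 to 54.1) and 110 CPM (97.8 to 123), but 5 cells held 76.4% of its control and 49.2% of its induced UMIs, and among cells with under 5% mitochondrial UMIs its log2 ratio was -0.54. After thinning, 14 of 199 control cells (7.04%, 3.90 to 11.5) and 39 of 206 induced cells (18.9%, 13.8 to 25.0) held a Ctgf UMI.

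Markers of other cell types differed between the libraries in cluster 7. The summed level of cycling markers was 15.2 CPM in the control and 49.2 CPM in the induced library, with 4 of 6 higher, and that of dermal papilla markers 22.4 and 2.59 CPM, with 5 of 8 at 0 in both and Notum at 40 and 3 UMIs. The part of these cells in the results was not tested. The sum of smooth muscle markers was 55.7 CPM in the control and 342 CPM in the induced library, with 4 of 6 higher, Des at 6 and 0 UMIs and Rgs5 at 0 in both. Acta2 sat in few cells: 3 control and 7 induced cells held an Acta2 UMI. Cells holding the other markers were not counted, and in the control Tagln had 93 UMIs against 11 of Acta2. Without the cells holding an Acta2 UMI the log2 ratio of Cyr61 was -1.08 (-1.14 to -1.02) and that of Ctgf 1.33 (1.01 to 1.67). The part of cells with the other smooth muscle markers was not tested.

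Across the 21 clusters, Wwtr1 had the most uniform direction among the members upstream of transcription. It was lower in the induced library in 18 of 20 clusters with enough UMIs, with 11 intervals clear of 0, and its level over all cells was 199 and 144 CPM, a log2 ratio of -0.46 (-0.51 to -0.42). In cluster 0 it had 355 and 274 CPM, in cluster 3, which is unnamed, 222 and 160 CPM, and in sebaceous gland-like cells 150 and 75.5 CPM. The exceptions were fibroblast-like cells, at 155 and 198 CPM, and Langerhans or antigen-presenting-like cells, at 18.0 and 56.1 CPM from 9 and 28 UMIs. Yap1 was lower in 9 and higher in 8 of 17 clusters, and over all cells its levels were 74.4 and 74.4 CPM. Tead1 was lower in 10 of 18 clusters and Lats2 in 10 of 20.

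The targets differed in how widely their changes extended. Ctgf was higher in 12 of 14 clusters, with 11 intervals clear of 0, and over all cells the log2 ratio was 1.15. In cluster 11, its richest source, it had 742 and 1292 CPM, a log2 ratio of 0.80 (0.69 to 0.91), while Cyr61 there had a log2 ratio of 0.11 (0.06 to 0.17). There 5 cells held 41.4% of the control and 35.1% of the induced Ctgf UMIs. Among the other tested clusters outside 5 and 15, 5 cells held between 49.2% and 100% of the Ctgf UMIs of each library. Cyr61 was lower in 8 and higher in 12 of 20 clusters. The lower levels included clusters 5, 15 and 7, inner bulge-like cells (1540 and 1262 CPM) and sebaceous gland-like cells (1535 and 1057 CPM), and the higher levels included clusters 0, 1 and 3, for example 299 and 469 CPM in cluster 3, and dermal papilla-like cells. Over all cells its log2 ratio was -0.07. Ajuba was higher in 10 of 15 clusters, among them cluster 0 at 8.91 and 15.8 CPM and the upper hair follicle-like cluster at 11.5 and 19.9 CPM, and lower in cluster 11 with a log2 ratio of -0.56 (-1.04 to -0.08). Amotl2 had an interval clear of 0 in cluster 5 alone among 17 clusters.

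**Figure D4:**
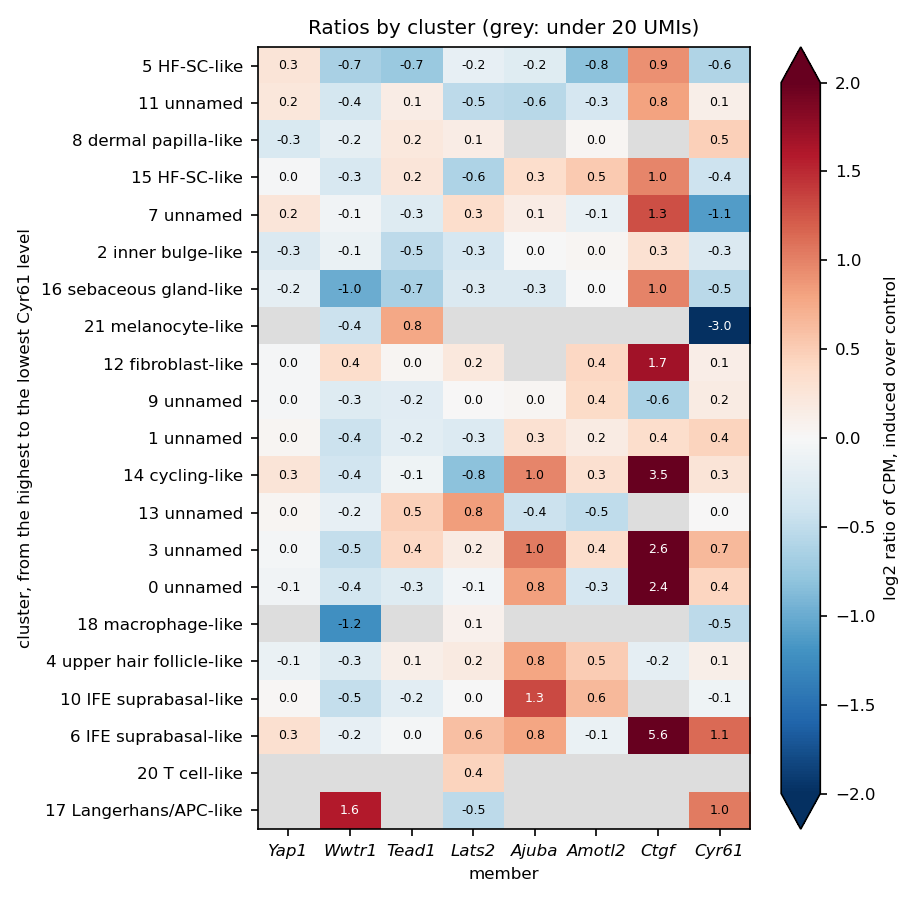
Log2 ratio of CPM, induced over control, of 8 members (columns) in the 21 clusters (rows, from the highest to the lowest Cyr61 level), with grey for under 20 UMIs over both libraries and colours saturated at 2. Wwtr1 is lower in 18 of 20 clusters and Ctgf higher in 12 of 14, and Cyr61 is lower in clusters 5, 15 and 7 and higher in clusters 0, 1 and 3.

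Wider lists were compared in the same cells. Some of them hold members, so their counts are not independent of the values above. The YAP target signature has 22 genes, which include Cyr61, Ctgf, Amotl2, Lats2 and Ankrd1. Of 19 tested in HF-SC-like cells, 11 had a log2 ratio below 0 and 8 above. Their median was -0.07, against 0.09 over all genes. By at least 1.5-fold, 5 were lower, where 6.68% of all genes were, and 2 were higher, where 13% were. Besides Cyr61 and Amotl2, the lower genes were F3, which encodes tissue factor, at 199 and 129 CPM, the growth arrest gene Gadd45a at 106 and 53.7 CPM, and Arhgef17 at 26 and 15 UMIs with an interval that crossed 0. Besides Ctgf, the higher gene was Nt5e, the ecto-nucleotidase CD73, at 54.0 and 95.5 CPM. Other targets with ample counts were level, among them Igfbp3 at 362 and 357 CPM and Crim1 at 194 and 215 CPM. In cluster 7 the signature had 3 of 20 genes lower by at least 1.5-fold (8.7% of all genes) and 4 higher (14.7%). Its median was -0.04 against 0.03 over all genes, and F3 was in the other direction there, at 162 and 254 CPM.

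The kinase arm was even. Of 17 Hippo kinases and scaffolds in HF-SC-like cells, none was lower by at least 1.5-fold (6.68% of all genes) and 1 was higher (13%). The higher gene was Sav1, the scaffold of the MST kinases, at 16.7 and 27.8 CPM, and the median log2 ratio was 0.05. Lats1 had 25.8 and 24.7 CPM, and the upstream kinase gene Map4k4 176 and 190 CPM. Of 18 YAP cofactors and cytoplasmic binders tested, 3 were lower by at least 1.5-fold (6.68% of all genes) and 1 higher (13%), with a median of -0.01. The lower genes were Tead1, Amotl2 and Tead4, a second DNA-binding partner, at 40.2 and 23.3 CPM, and the higher gene was Wtip, an Ajuba family LIM protein, at 10.9 and 17.4 CPM. Tead4 was also lower in cluster 7, at 25.7 and 10.7 CPM. Tead3 had 21.3 and 24.2 CPM and Vgll4, a TEAD-binding repressor, 67.2 and 59.0 CPM in HF-SC-like cells.

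Serum response factor (SRF) is a second transcription factor that answers to actin, and Cyr61 and Ctgf are among its known targets too. Of 8 other genes of an SRF list tested in HF-SC-like cells, 6 were lower by at least 1.5-fold (6.68% of all genes) and none was higher (13%). The median log2 ratio was -0.82, the lowest of the 5 lists beside the members. Actg1 had 13130 and 7544 CPM, Actb 9120 and 6065 CPM, the tropomyosin gene Tpm1 1551 and 622 CPM, and vinculin (Vcl) 134 and 74.7 CPM. Srf itself had 106 and 48.9 CPM. The study captured miR-205 on the 3′ UTR of Actb and reported lower Actb mRNA in stem cells after induction. What lowered the genes of this list was not tested. In cluster 5, 6 of 8 genes were lower by at least 1.5-fold (7.9% of all genes), none was higher (10.6% of all genes) and the median was -0.79, against 0.03 over all genes. In cluster 15, 1 of 7 was lower by that much (8.88% of all genes) and none higher (13.2%), while 6 of 7 had a log2 ratio below 0, with a median of -0.20 against 0.07 over all genes. In cluster 7 the list gave 1 of 10 lower by at least 1.5-fold (8.7% of all genes) and 4 higher (14.7%). The lower gene was Tpm1, at 1134 and 750 CPM. The 4 higher genes were Acta2, Tagln, Cnn1 and Myl9, of which the first 3 are also on the smooth muscle list. Of the 10 genes, 6 had a log2 ratio below 0, and the median was -0.24 against 0.03 over all genes.

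Of 16 immediate early genes in HF-SC-like cells, none was lower and 2 were higher by at least 1.5-fold, a share near the 13% of all genes. The log2 ratio was above 0 for 14, with a median of 0.28 against 0.09 over all genes. They were the heat shock gene Hspa1a, at 665 and 1215 CPM, and Socs3, at 121 and 323 CPM. In cluster 7, 9 of 16 were higher by at least 1.5-fold, where 14.7% of all genes were. The list median there was 0.61, against 0.03 over all genes. Among the 9 were Fos at 1651 and 3191 CPM, Atf3 at 873 and 1533 CPM, Egr1 at 486 and 846 CPM, Btg2 at 513 and 824 CPM, Nr4a1 at 496 and 777 CPM, Zfp36 at 442 and 751 CPM and Dusp1 at 419 and 637 CPM. In cluster 5, 5 of 16 were higher by at least 1.5-fold (10.6% of all genes) and none was lower (7.9%). The log2 ratio there was above 0 for 15, with a median of 0.46 against 0.03 over all genes. In cluster 15 the median was -0.24, against 0.07 over all genes. Ctgf was higher and Cyr61 lower in both clusters 5 and 15. Whether these directions are linked was not tested.

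**Figure D5:**
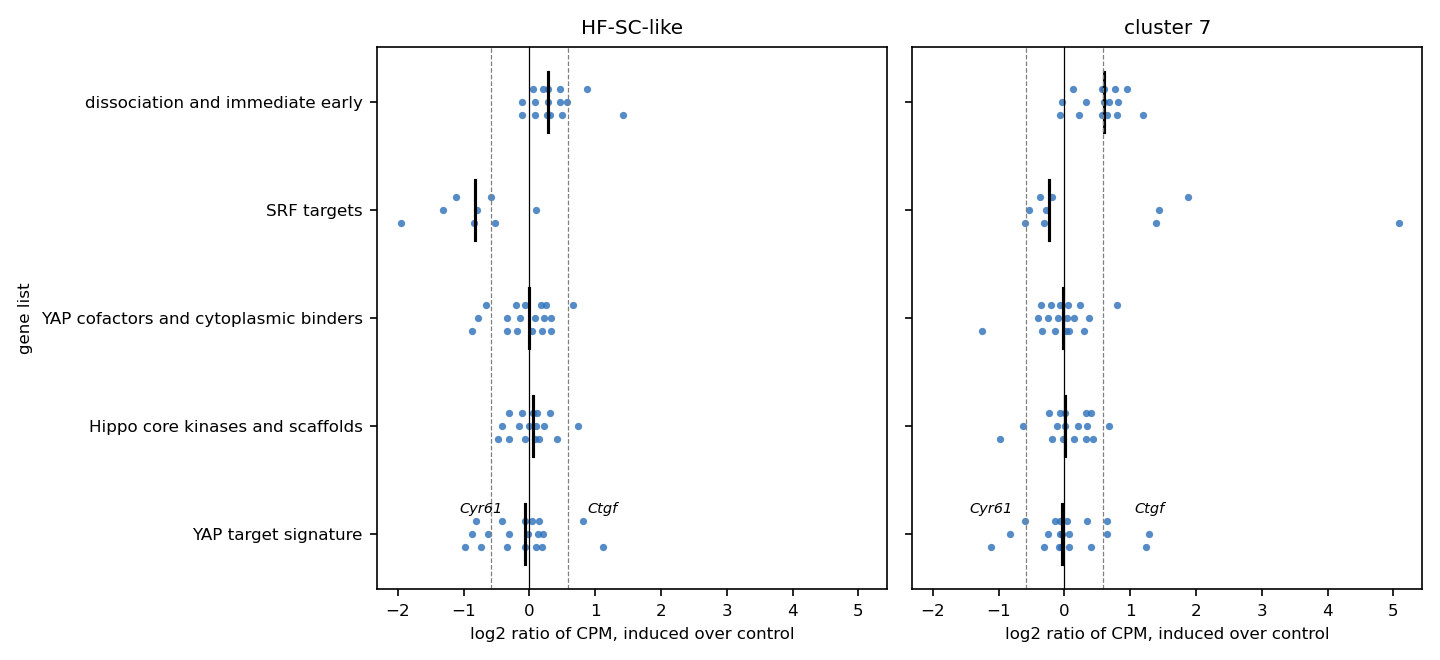
Log2 ratio of CPM, induced over control, of each gene (points) of 5 lists in HF-SC-like cells (left) and cluster 7 (right), with the list median as a bar and dashed lines at 1.5-fold. In HF-SC-like cells the SRF list lies lowest, with a median of -0.82, and the YAP target signature is centred near 0 with Cyr61 and Ctgf on opposite sides.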

How the data were processed

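The authors deposited raw UMI counts per gene and cell barcode for both libraries, made with Cell Ranger 3.0.1 (per the file headers) against mm10 (per the submitters' processing notes). Cells with more than 200 and fewer than 5000 genes and under 10% mitochondrial UMIs were kept. Libraries were integrated and clustered with Seurat 5.3.0 in R 4.3.3 (2000 variable genes without the listed genes, 30 dimensions, resolution 0.8), and clusters were named from at least 3 markers. Doublets were scored with Scrublet in scanpy 1.11.5 and left out only as an alternative. UMIs were summed per library and cluster and divided by the summed total (CPM), with exact Poisson intervals. Ratios used a pseudocount of 0.5 UMIs, exact conditional binomial intervals and genes with at least 20 UMIs. Shares were thinned to 5000 UMIs per cell. With 1 library per group no p-value was computed. Intervals and limits for counts of 0 (3 counts) cover counting error only. The summing and ratio steps were tested on simulated data.

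The members, lists and cluster naming rule were chosen with earlier results of these data known. Genes named from the lists were, per population, up to 8 with the most UMIs among those past 1.5-fold with at least 100 UMIs, plus Krt14, Fos, Jun, Egr1 and Atf3. Other list genes (Nt5e, Arhgef17, Tead3, Tead4, Srf, Sav1, Wtip, Lats1, Map4k4, Vgll4, Igfbp3, Crim1, Myl9, Cnn1, Acta2 and Tagln) were chosen after their values were seen. miRNA and promoter sequences were RefSeq's on GRCm38, and 3′ UTRs came from GENCODE M1 on NCBIM37. Promoters of Ctgf and Tead1 were not analysed here. Alternatives covered scaling, pseudocount, low-count and mitochondrial filters, doublets, thinning, clustering resolution and each stem cell cluster alone.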

Additional observations from a re-analysis of the deposited data

Results flagged for a closer look

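Wwtr1 and Cyr61 had other directions in some dermal clusters than in HF-SC-like cells. Wwtr1 had a log2 ratio of 0.35 in fibroblast-like cells (cluster 12) and -0.71 in HF-SC-like cells. Cyr61 had a log2 ratio of 0.47 in dermal papilla-like cells (cluster 8) and 0.14 in fibroblast-like cells, against -0.74 in HF-SC-like cells. Wwtr1 was lower in dermal papilla-like cells (-0.19), and Cyr61 was also higher in several other clusters, such as cluster 3 (0.65). With 1 library per group these differences between cell types were not tested.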

How the results depend on the processing

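No paired analysis was possible because each group has 1 library and the results come from no test, and no replicate could be left out. Over 13 alternatives the log2 ratio in HF-SC-like cells ran from -0.83 to -0.42 for Cyr61 and from 0.91 to 1.70 for Ctgf, and over 11 alternatives Cyr61 in cluster 7 ran from -1.61 to -1.01. Clusters 5 and 15 held the same cells at resolution 1.2, so that setting left HF-SC-like values as they were. Tead1 fell short of 1.5-fold without the highest doublet scores (-0.56) and as a mean over cells (-0.53), which left 3 members lower. Under 5% mitochondrial UMIs 4 members were lower, but Cyr61 (-0.52) was no longer among them and Lats2 (-0.75) was. The median of the YAP target signature, near 0, moved: in HF-SC-like cells it was 0.030 as a mean over cells, -0.20 after thinning and 0.016 in cluster 15 alone, and in cluster 7 it was 0.019 without mitochondrial and ribosomal genes, 0.0066 as a mean over cells and 0.080 after thinning. In cluster 15 alone 1 member was lower by at least 1.5-fold instead of 4, and Tead1 (0.25) and Amotl2 (0.52) had the other sign on few UMIs. In cluster 7, under 5% mitochondrial UMIs Ctgf turned to -0.54 and 0 members were higher, and with genes of at least 1 UMI 2 were. Clusters 5 and 15 alone and the removal of cells with Acta2 were chosen after seeing the data. The cause of these shifts was not tested.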
